A study of Mus musculus with 9 samples.

Results

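The genes described are those of the Rab, Arf and Arl small GTPases. Members were selected on their gene symbols: of 27179 gene identifiers in the count table, 85 mapped to a mouse symbol of the form Rab, Arf or Arl followed by its number, with 59 Rab, 6 Arf and 20 Arl genes. Splenic CD43-negative B cells of wild-type mice had been activated for 72 h with, per the labels, CD40L at 5 ug/mL, an anti-IgM antibody at 10 ug/mL and IL-4 at 20 ng/mL. For the ligand, the methods name an antibody against CD40. RNA immunoprecipitation sequencing (RIP-seq) used an antibody to UPF1 in its phosphorylated form (p-UPF1) or normal rabbit IgG, and the lysate served as input. Each group had 3 libraries, and all 9 came from cells of the same genotype and stimulation. The methods describe the mice of the study in general as age-matched and of both sexes, with the engineered lines on a C57BL/6 background, and call the points of its graphs independent biological replicates. Neither they nor the labels tie the RIP-seq libraries to single animals, so P values measure the spread between these libraries, which may be partly technical. The symbol rule uses no measured value, but the family was taken up with results of these data known, Arf2 being already among the RNAs with the largest enrichment over IgG. Arf2 is therefore described without a test.

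Small GTPases switch between a GTP-bound form that recruits effectors to membranes and a GDP-bound form. Guanine nucleotide exchange factors (GEFs) load GTP and GTPase-activating proteins (GAPs) promote its hydrolysis. Rab proteins are prenylated at their C terminus, give organelles their identity and direct vesicle transport and tethering, whereas Arf and Arl proteins are mostly attached through an N-terminal myristate or acetyl group and recruit coats, lipid kinases and tethers. In B cells this machinery serves internalisation of the antigen receptor, antigen processing and antibody secretion. UPF1 is the RNA helicase at the centre of nonsense-mediated decay (NMD) of mRNAs, and phosphorylated UPF1 is found where decay factors assemble on an mRNA.

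The paralogues with the largest differences described below encode closely related proteins, and their coding sequences differ at many positions. To show this, the last 60 coding bases of the class I Arf genes and of the Rab5 genes are given 5′ to 3′ from GENCODE M21 transcripts, with the stop codon in capitals.
Arf1: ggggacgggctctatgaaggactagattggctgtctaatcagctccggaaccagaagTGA
Arf2: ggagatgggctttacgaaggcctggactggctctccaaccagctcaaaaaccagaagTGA
Arf3: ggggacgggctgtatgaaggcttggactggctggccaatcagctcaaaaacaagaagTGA
Rab5a: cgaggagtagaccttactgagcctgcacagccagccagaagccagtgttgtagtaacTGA
Rab5b: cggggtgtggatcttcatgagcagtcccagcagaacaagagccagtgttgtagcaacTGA
Rab5c: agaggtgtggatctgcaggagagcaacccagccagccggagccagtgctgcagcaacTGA
All 6 end in the same stop codon, TGA, which 45 of the 72 tested members carry, against 18 with TAA and 9 with TAG. Over the whole coding sequence, aligned end to end, Arf2 matched Arf1 at 80.6% and Arf3 at 80.2% of positions, with a longest shared run of 17 and 20 nucleotides. Between Rab5b and Rab5c the match was 76.5% and the longest run 23 nucleotides. In the 29 pairs of paralogues compared, the longest shared coding run was 11 to 38 nucleotides.

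Total counts were 17372510 to 18550508 in IgG, 19873687 to 24945286 in input and 23251890 to 24802119 in p-UPF1 libraries. No library was left out. Levels are given as CPM, the count relative to the size of its library after TMM scaling. B cell markers were present, with Ms4a1 at 368 to 740 CPM over the 9 libraries, while the T cell, myeloid, NK cell and erythroid markers Cd3e, Csf1r, Ncr1 and Hba-a1 were at or near 0. Plasma cell markers were detected too, with Prdm1 at 8.76 to 23.8 CPM. In bulk libraries, fewer cells of a type and less RNA per cell cannot be told apart. Fold changes describe an RNA relative to the typical RNA of the same libraries, since scaling sets the median gene near 0 (−0.03 on the log2 scale for both p-UPF1 contrasts). With library size alone that median was −0.19 over IgG, and none of the members called at any size changed sign under the 5 other scalings.

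Of the 85 members, 72 had enough counts to be tested among 13129 genes (48 Rab, 6 Arf and 18 Arl). The other 13 had at most 13 counts in any library. Members lay on both sides of IgG in the p-UPF1 precipitate. In the quasi-likelihood test of edgeR, adjusted by Benjamini-Hochberg, 24 of 72 (33.3%) were higher by 1 or more on the log2 scale, compared with 22.2% of all tested genes, and 17 (23.6%) were lower by as much, compared with 21.9%. Scaled by library size only, 19 members (26.4%, all genes 19%) passed upwards and 18 (25%, all genes 26%) downwards, and upper-quartile factors gave the same member counts (all genes 19.5% and 25.3%). Without Arf2 and the 4 members whose passing of the count filter depended on the precipitate (Rab15, Rab26, Rab36 and Arl9), 21 of 67 (31.3%) were higher and 17 (25.4%) lower, beside 21.2% and 22.3% of all genes that did not depend on the filter in this way. At any size, 33 were higher (45.8%, all genes 40.4%), 29 lower (40.3%, all genes 42.2%) and 10 not called, shares close to those of all genes. Either of these other scalings gave 31 upwards and 32 downwards (43.1% and 44.4%), beside 35.6% and 47.3% of all genes by library size and 36.3% and 46.5% by upper-quartile factors. The median log2 fold change was 0.43 over the 72 members (0.16 without those 5, all genes −0.03), 0.55 over Rab, 0.57 over Arl and −0.77 over Arf genes, and it ran from −2.19 for Arl3 to 3.50 for Arf2. The family therefore held mRNAs at both ends, as the plot of the 2 contrasts shows.

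**Figure D1:**
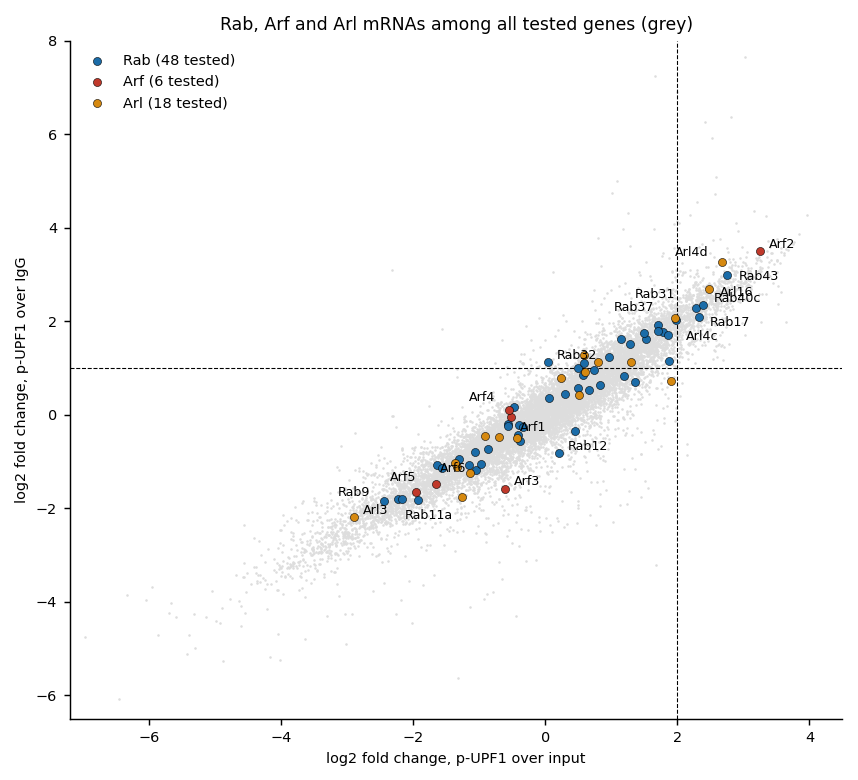
Log2 fold change of p-UPF1 over input (x axis) against p-UPF1 over IgG (y axis) for 13129 tested genes in grey and 72 members coloured by subfamily, with dashed lines at 2 and 1, the criterion for p-UPF1-bound RNAs. The 7 bound members lie in the upper right and the lowest members, such as Arl3 and Rab9, in the lower left.

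Against input, the criterion asks for 2 or more on the log2 scale, and 7 of 72 members (9.72%) passed it, beside 6.31% of all tested genes. The same 7 were p-UPF1-bound by both criteria, beside 6.25% of all genes. Without Arf2 and the 4 filter-dependent members both counts were 6 of 67 (8.96%, beside 5.77% of all genes bound without such genes). The full 7 bound members were Arf2, Arl4d, Rab43, Arl16, Rab40c, Rab31 and Rab17. Over 23 alternative settings the count passing the criterion over input ran from 5 to 12, with 11 when input library A was left out. The share of all genes in those fits is not given here. Just outside the criterion over input lay Arl4c (1.97) and Rab37 (1.97). In the opposite direction, 4 members were lower than input by at least 2 on the log2 scale, namely Arl3, Rab9, Rab11a and Rab5c, or 5.56%, beside 9.67% of all genes. In 32 members all 3 p-UPF1 libraries exceeded all 6 control libraries (44.4%, all genes 37.0%), and in 27 all 3 lay below them (37.5%, all genes 37.6%). Without the same 5 members the counts were 29 (43.3%) and 27 (40.3%) of 67. As a share of all counts the members took 0.470% ± 0.00375 of input, 0.475% ± 0.00782 of the IgG and 0.521% ± 0.0089 of the p-UPF1 libraries (SD, n = 3). Within that sum the Rab share was 0.305% in input, 0.302% in the IgG and 0.385% in the p-UPF1 libraries, whereas the Arf share was 0.111%, 0.119% and 0.0763%. Rab43 alone took 0.00774% of the IgG and 0.0553% of the p-UPF1 libraries. Without it the share of the members was 0.467% ± 0.00729 in the IgG and 0.465% ± 0.00834 in the p-UPF1 libraries. The net difference of the whole family was thus not seen without Rab43, while other members rose or fell. The Rab share without Rab43 was still higher in the p-UPF1 libraries, at 0.330% beside 0.294% in the IgG libraries.

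**Figure D2:**
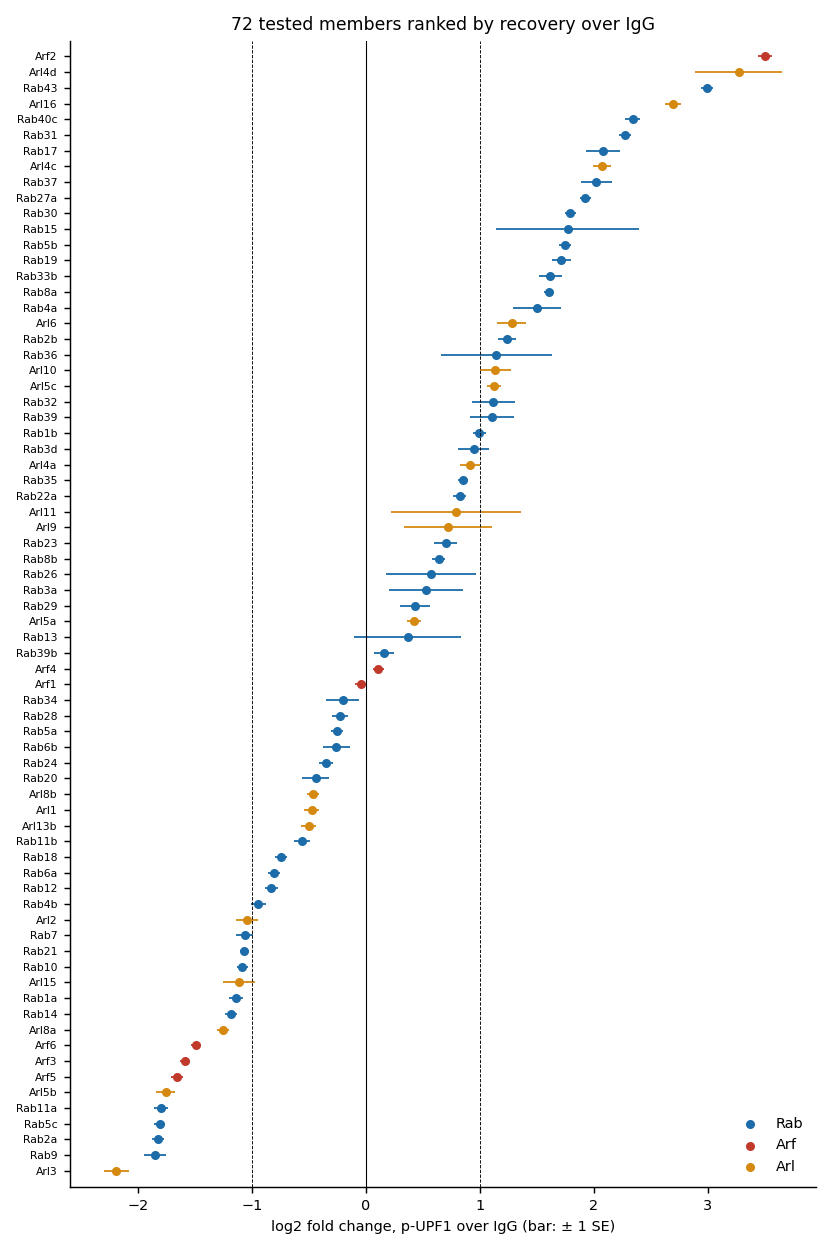
Log2 fold change of p-UPF1 over IgG with its SE for each of the 72 tested members, coloured by subfamily, with dashed lines at −1 and 1. Arf2 is highest at 3.50 and Arl3 lowest at −2.19, and 5 of the 6 Arf genes lie at or below 0.11.

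The Arf subfamily split sharply, with Arf2 alone enriched. Arf1, Arf2 and Arf3 form class I, which recruits the COPI coat and clathrin adaptors to the Golgi. Arf2 read 19.4, 21.5 and 21.9 CPM in the input libraries, 16.6, 17.6 and 19 CPM in the IgG libraries and 196, 196 and 209 CPM in the p-UPF1 libraries. Every p-UPF1 library thus lay far above both controls, and the log2 fold change was 3.50 ± 0.06 against IgG and 3.26 ± 0.06 against input (SE). Arf1 stood at 321, 329 and 337 CPM in input, at 221, 239 and 254 CPM in the IgG and at 228, 228 and 235 CPM in the p-UPF1 libraries. The IgG and p-UPF1 libraries of Arf1 overlapped, the log2 fold change over IgG being −0.04 ± 0.05 (adjusted P = 0.388), and its sign turned without IgG library B (0.02) and without a low-count filter. Without IgG library A, Arf1 passed the adjusted P threshold as lower than IgG, at −0.097. Against input Arf1 was lower, at −0.51 ± 0.05 (adjusted P = 2.76e-08). Arf3 had p-UPF1 levels of 129.6, 133 and 137 CPM, against 385, 402 and 412 CPM in the IgG and 194, 205 and 210.2 CPM in the input libraries. Arf3 was therefore highest in IgG, where it stood 0.98 ± 0.04 above input (adjusted P = 1.003e-10), and the difference of p-UPF1 from IgG, −1.58 ± 0.04 (adjusted P = 4.81e-15), was larger in size than that from input, −0.61 ± 0.04 (adjusted P = 1.41e-09). Arf2 lies on chromosome 11, 103966725 to 103985350 on the plus strand, of mm10 (GRCm38).

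Class II and class III Arf mRNAs were not enriched over input either. Arf4 and Arf5 form class II and act between the endoplasmic reticulum and the Golgi, and Arf6, the class III member, acts at the plasma membrane in endocytic recycling and actin remodelling. Arf4 was measured at 157, 164 and 169 CPM in input, 98.7, 102 and 109 CPM in the IgG and 105, 113 and 116 CPM in the p-UPF1 libraries. Arf4 did not pass the test over IgG, at 0.11 ± 0.05 (adjusted P = 0.0546), and the value was unsteady. Its sign turned under library size alone and under upper-quartile factors, and it passed in 9 of 21 alternatives, among them DESeq2 (0.12), a fit with the library's letter as a block (0.11) and the fits without IgG library B (0.16), input library B (0.12) or p-UPF1 library C (0.15). Arf4 was lower than input, at −0.56 ± 0.05 (adjusted P = 1.79e-08). Arf5 read 112, 116 and 118 CPM in the input libraries, 91.1, 94.3 and 94.3 CPM in the IgG libraries and 27.9, 30.1 and 30.7 CPM in the p-UPF1 libraries. Its p-UPF1 libraries lay far below both controls, at −1.66 ± 0.05 (adjusted P = 1.34e-14) over IgG and −1.96 ± 0.05 (adjusted P = 1.12e-15) over input. Arf6 stood at 295, 300.3 and 307 CPM in input, at 264, 269.6 and 274 CPM in the IgG and at 92.6, 93.1 and 102 CPM in the p-UPF1 libraries. Arf6 was lower in the same way, at −1.49 ± 0.04 (adjusted P = 1.0e-14) over IgG and −1.65 ± 0.04 (adjusted P = 2.24e-15) over input.

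**Figure D3:**
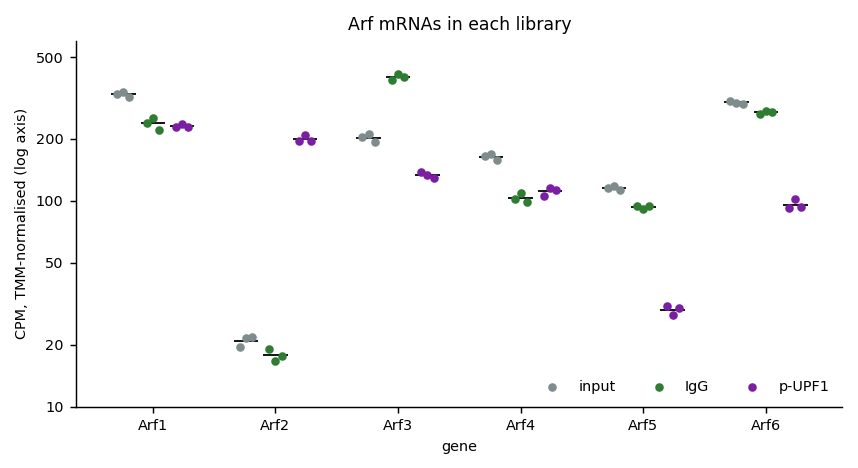
TMM-normalised CPM (log axis) of Arf1 to Arf6 in each of the 9 libraries, as 1 point per library and a bar for the group mean. The mean of Arf2 is 20.9 CPM in input and 200.4 CPM in p-UPF1 libraries, while Arf5 and Arf6 are lowest in p-UPF1 libraries.

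Per kilobase of exon, the input level of Arf2 was the lowest of the 6, at 7.54 CPM per kb. The others stood at 158 (Arf1), 108 (Arf5), 96.8 (Arf4), 80.6 (Arf6) and 54.3 CPM per kb (Arf3). In the p-UPF1 precipitate the level of Arf2, 72.2 CPM per kb, came second to that of Arf1 at 111. The order of the Arf mRNAs in the precipitate was thus not their order in the lysate.

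Among the Arl genes, 6 of 18 tested were higher than IgG by at least 1 on the log2 scale (33.3%, all genes 22.2%) and 5 were lower (27.8%, all genes 21.9%). The higher ones were Arl4c and Arl4d, of a group that recruits cytohesins to the plasma membrane, together with Arl16, Arl5c, Arl6 and Arl10. Arl16 had p-UPF1 levels of 134, 136 and 144 CPM, against 19.1, 21.9 and 23 CPM in the IgG and 22.3, 25.6 and 26.7 CPM in the input libraries. The groups did not overlap, and the log2 fold change was 2.69 ± 0.07 (adjusted P = 2.49e-15) over IgG and 2.48 ± 0.07 (adjusted P = 3.83e-15) over input by edgeR's quasi-likelihood test. Arl16 lies on chromosome 11, 120464326 to 120467600 on the minus strand, where its exons overlap those of Ccdc137 on the opposite strand, and because the strand setting of the counting was not given for these libraries, reads of the 2 genes may not have been separated. Arl4c was measured at 13.4, 14.1 and 15.3 CPM in input, 12.3, 12.9 and 14.9 CPM in the IgG and 52.8, 57.1 and 58.4 CPM in the p-UPF1 libraries. Arl4c passed the criterion over IgG, at 2.07 ± 0.08 (adjusted P = 2.86e-13), but at 1.97 ± 0.08 (adjusted P = 3.54e-13) over input it stayed just under 2. Arl4a read 15.4, 17.5 and 17.6 CPM in the input libraries, 12.2, 14.2 and 14.4 CPM in the IgG libraries and 24.6, 26 and 26.4 CPM in the p-UPF1 libraries. Arl4a was also higher, by 0.91 ± 0.09 (adjusted P = 3.89e-08) over IgG. Arl4d rested on few reads. Arl4d stood at 0.454, 0.509 and 0.527 CPM in input, at 0.102, 0.266 and 0.616 CPM in the IgG and at 2.61, 3.44 and 3.61 CPM in the p-UPF1 libraries, a log2 fold change of 3.27 ± 0.38 (adjusted P = 6.78e-07) over IgG, and its call as p-UPF1-bound was lost when the minimum fold itself was tested (glmTreat).

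The Arl mRNAs lower in the precipitate were Arl3, which releases lipidated cargo in cilia, Arl5b and Arl8a, which act at the trans-Golgi and on lysosomes, and Arl2 and Arl15. Arl3 had p-UPF1 levels of 3.39, 3.49 and 4.51 CPM, against 16.9, 17 and 18.3 CPM in the IgG and 27.6, 28.4 and 29.5 CPM in the input libraries. Arl3 was the lowest of all 72 members against both controls, at −2.19 ± 0.11 (adjusted P = 8.56e-12) over IgG and −2.90 ± 0.10 (adjusted P = 9.07e-14) over input. Arl5b was measured at 26.2, 27.8 and 28.8 CPM in input, 35.4, 39.2 and 41.6 CPM in the IgG and 10.9, 11.1 and 12.4 CPM in the p-UPF1 libraries. Arl5b was lower than both, at −1.76 ± 0.08 (adjusted P = 3.70e-12) over IgG and −1.26 ± 0.08 (adjusted P = 3.53e-10) over input. Arl6, which recruits the BBSome coat, moved the other way, at 1.28 ± 0.13 (adjusted P = 1.04e-07) over IgG. Arl1, which recruits golgins to the trans-Golgi, and Arl13b of the ciliary membrane were lower by under 1 on the log2 scale, at −0.48 ± 0.06 (adjusted P = 3.02e-06) and −0.50 ± 0.07 (adjusted P = 3.76e-06) over IgG.

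Of the 48 tested Rab genes, 17 were higher than IgG (35.4%, all genes 22.2%) and 9 lower (18.8%, all genes 21.9%) by at least 1 on the log2 scale, and 4 were p-UPF1-bound (8.33%, all genes 6.25%). Without Rab15, Rab26 and Rab36, 15 of 45 were higher (33.3%). The most enriched was Rab43, a Golgi Rab. Rab43 read 84.1, 84.8 and 88.5 CPM in the input libraries, 67.3, 71.6 and 79.2 CPM in the IgG libraries and 576, 581 and 585 CPM in the p-UPF1 libraries. Per kilobase its level in the p-UPF1 precipitate, 119 CPM per kb, was exceeded among the members by that of Rab35 alone, 275 CPM per kb. The log2 fold change of Rab43 was 2.997 ± 0.05 (adjusted P = 2.03e-17) over IgG and 2.76 ± 0.05 (adjusted P = 2.86e-17) over input by edgeR's quasi-likelihood test. It lies on chromosome 6, 87788853 to 87812164 on the minus strand. Rab40c stood at 23.4, 23.8 and 24.3 CPM in input, at 22.4, 23.7 and 27.9 CPM in the IgG and at 120.4, 125 and 129 CPM in the p-UPF1 libraries. Rab40c, a Rab with a SOCS box that joins a ubiquitin ligase, stood at 2.34 ± 0.07 (adjusted P = 5.64e-15) over IgG and 2.39 ± 0.07 (adjusted P = 3.29e-15) over input. Rab31 had p-UPF1 levels of 188, 192 and 204 CPM, against 38.9, 39.2 and 42.8 CPM in the IgG and 38.9, 39.8 and 41.3 CPM in the input libraries. Rab31, which acts between the trans-Golgi and endosomes, stood at 2.27 ± 0.05 (adjusted P = 3.94e-16) and 2.28 ± 0.05 (adjusted P = 2.71e-16). Between IgG and input neither passed the test, at 0.05 ± 0.07 (adjusted P = 0.625) for Rab40c and 0.01 ± 0.06 (adjusted P = 0.905) for Rab31. Rab17 was measured at 1.99, 2.57 and 2.80 CPM in input, 2.76, 2.92 and 2.98 CPM in the IgG and 10.8, 12.5 and 13.4 CPM in the p-UPF1 libraries. Rab17, best known from polarised epithelia, was enriched from a low level, at 2.08 ± 0.15 (adjusted P = 1.04e-09) over IgG and 2.33 ± 0.15 (adjusted P = 2.45e-10) over input, and its call too was lost when the minimum fold was tested. Rab40c lies on chromosome 17, 25882114 to 25919714 on the minus strand, Rab31 on chromosome 17, 65651726 to 65772752 on the minus strand, and Rab17 on chromosome 1, 90958133 to 90969673 on the minus strand.

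Rab27a and Rab37 were among the Rab mRNAs that passed the criterion over IgG and missed that over input. Rab27a read 54.6, 56 and 56.1 CPM in the input libraries, 45.9, 47 and 50.5 CPM in the IgG libraries and 174, 185 and 186 CPM in the p-UPF1 libraries. Rab27a, which docks secretory lysosomes, stood at 1.92 ± 0.05 (adjusted P = 1.47e-15) over IgG and 1.71 ± 0.05 (adjusted P = 3.91e-15) over input. Rab37 stood at 11.7, 12 and 12.1 CPM in input, at 7.54, 13.4 and 13.7 CPM in the IgG and at 44.6, 46.9 and 49.1 CPM in the p-UPF1 libraries. Rab37, also of secretory vesicles, stood at 2.02 ± 0.14 (adjusted P = 4.97e-10) and 1.97 ± 0.13 (adjusted P = 4.80e-10). Rab3d and Rab3a of exocytic granules were low, at 8.12 ± 0.770 and 1.90 ± 0.155 CPM in p-UPF1 libraries, and Rab3d was higher than IgG at 0.95 ± 0.14 (adjusted P = 7.19e-06) while Rab3a did not pass, at 0.52 ± 0.32 (adjusted P = 0.145). Rab19 was higher than IgG by 1.71 ± 0.08 (adjusted P = 5.76e-12), and the Golgi Rabs Rab30 and Rab33b were higher than IgG by 1.79 ± 0.05 (adjusted P = 3.92e-15) and 1.62 ± 0.10 (adjusted P = 1.80e-10). Rab35, of endosomal recycling and cytokinesis, had the highest input level of the family per kilobase, 185 CPM per kb, and was higher than IgG by 0.85 ± 0.04 (adjusted P = 6.74e-12).

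The 9 lower Rab mRNAs were those of Rab9, Rab2a, Rab5c, Rab11a, Rab14, Rab1a, Rab10, Rab21 and Rab7. Rab9, of transport from late endosomes to the Golgi, was the lowest Rab. Rab9 had p-UPF1 levels of 4.99, 5.28 and 6.02 CPM, against 18, 19.9 and 21 CPM in the IgG and 28.8, 29 and 30.5 CPM in the input libraries. The log2 fold change was −1.85 ± 0.10 (adjusted P = 1.98e-11) over IgG and −2.43 ± 0.09 (adjusted P = 2.58e-13) over input. Rab11a was measured at 61.5, 65.7 and 67.1 CPM in input, 47.6, 47.8 and 48.4 CPM in the IgG and 13.1, 13.9 and 14.4 CPM in the p-UPF1 libraries. Rab11a, the Rab of recycling endosomes, stood at −1.80 ± 0.06 (adjusted P = 7.63e-14) and −2.23 ± 0.06 (adjusted P = 2.97e-15). Rab7, of late endosomes and lysosomes, stood at −1.06 ± 0.07 (adjusted P = 7.45e-10) over IgG, Rab14 at −1.18 ± 0.05 (adjusted P = 9.92e-13) and Rab21 at −1.07 ± 0.04 (adjusted P = 1.92e-13). Rab18, of the endoplasmic reticulum and lipid droplets, was lower by less, at −0.74 ± 0.05 (adjusted P = 4.22e-10). Of these genes, Rab2a, Rab5c and Rab10 have a paralogue that was higher than IgG by at least 1 on the log2 scale.

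In the Rab5 group, which defines early endosomes, the order of the 3 paralogues changed. Rab5b read 42.9, 44.8 and 46.6 CPM in the input libraries, 35.3, 38.5 and 39.2 CPM in the IgG libraries and 123, 128 and 128 CPM in the p-UPF1 libraries, and its log2 fold change over IgG was 1.75 ± 0.05 (adjusted P = 1.19e-14). Rab5c stood at 143, 144 and 149 CPM in input, at 113, 113 and 113 CPM in the IgG and at 29.9, 32.8 and 33.8 CPM in the p-UPF1 libraries, and its log2 fold change was −1.81 ± 0.05 (adjusted P = 4.27e-15). Rab5a lay between them, at −0.25 ± 0.05 (adjusted P = 3.00e-04). Of the counts of the 3 genes, Rab5b took 16.5% ± 0.567 in input, 17.4% ± 0.930 in the IgG and 59.1% ± 0.367 in the p-UPF1 libraries (SD, n = 3), and Rab5c took 53.5% ± 0.246 in input, 52.2% ± 0.685 in the IgG and 15% ± 0.699 in the p-UPF1 libraries. Per kilobase, Rab5b had the lowest level of the 3 in input, 13.3 CPM per kb beside 34.6 for Rab5a and 73.6 for Rab5c. In p-UPF1 libraries it had the highest, 37.6 CPM per kb beside 23.4 and 16.3. Exons of Rab5b overlap Pmel, and those of Rab5a overlap Pp2d1, on the opposite strand.

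The Rab2 and Rab1 pairs, of transport between the endoplasmic reticulum and the Golgi, also parted. Rab2a had p-UPF1 levels of 23.7, 23.9 and 24 CPM, against 80.0, 85.5 and 88.2 CPM in the IgG and 88.1, 91.6 and 92.4 CPM in the input libraries, at −1.82 ± 0.05 (adjusted P = 8.12e-15) over IgG. Rab2b was measured at 15.2, 15.8 and 16.5 CPM in input, 12.2, 12.4 and 14.7 CPM in the IgG and 30.2, 30.5 and 32 CPM in the p-UPF1 libraries, at 1.24 ± 0.08 (adjusted P = 3.96e-10). Rab2b took 14.9% of the counts of the pair in input and 56.4% in p-UPF1 libraries, and its exons overlap Tox4 on the opposite strand. Rab1a read 167, 171 and 172 CPM in the input libraries, 114, 129.8 and 138 CPM in the IgG libraries and 54.9, 58.1 and 59.9 CPM in the p-UPF1 libraries, at −1.14 ± 0.06 (adjusted P = 2.74e-11) over IgG. Rab1b stood at 102, 105 and 107 CPM in input, at 69.5, 72.1 and 81.1 CPM in the IgG and at 145, 146 and 153 CPM in the p-UPF1 libraries, at 0.996 ± 0.05 (adjusted P = 2.56e-11), which is just under the minimum of 1. Of the counts of the pair, Rab1b took 38.1% ± 0.650 in input, 36.9% ± 2.24 in the IgG and 72% ± 0.996 in the p-UPF1 libraries.

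Among the exocytic Rab8 and Rab10 mRNAs, Rab8a had p-UPF1 levels of 185, 189 and 191 CPM, against 58.7, 62.2 and 63.9 CPM in the IgG and 83.4, 84.7 and 86.3 CPM in the input libraries. Rab8a was higher than IgG, at 1.61 ± 0.04 (adjusted P = 3.75e-15). Rab10 was measured at 226, 230.4 and 239 CPM in input, 150.1, 157 and 168 CPM in the IgG and 73.5, 74.5 and 75.9 CPM in the p-UPF1 libraries. Rab10 was lower, at −1.09 ± 0.05 (adjusted P = 1.73e-12), and its exons overlap the antisense gene Rab10os. Rab8b, which took 50.5% of the counts of the Rab8, Rab10 and Rab13 genes in input, was higher by 0.64 ± 0.05 (adjusted P = 9.43e-09), at 368 ± 32.9 CPM in the IgG and 572 ± 23 CPM in the p-UPF1 libraries. In the Rab4 pair of rapid recycling, Rab4a read 1.73, 1.95 and 2.42 CPM in the input libraries, 1.28, 1.81 and 2.15 CPM in the IgG libraries and 4.63, 5.03 and 5.24 CPM in the p-UPF1 libraries, at 1.51 ± 0.21 (adjusted P = 5.40e-06) over IgG. Rab4b stood at 49, 50.0 and 50.3 CPM in input, at 37.5, 39 and 40.2 CPM in the IgG and at 19.2, 19.7 and 21.7 CPM in the p-UPF1 libraries, at −0.94 ± 0.06 (adjusted P = 4.70e-10). Even so Rab4b held most counts, with 80.2% of the counts of the pair in p-UPF1 libraries.

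To compare paralogues without any scaling between libraries, the log2 ratio of the counts of 2 paralogues was taken within each library. Both members were tested in 29 pairs of 16 groups of paralogues, and each pair is written with the more enriched member first, so every shift over IgG, and their median, is positive by that order. Between IgG and p-UPF1 libraries the ratio shifted by at least 1 in 22 pairs (75.9%) and by at least 2 in 10 (34.5%), with a median size of 1.56, and by under 0.5 in 2. Over all 86178756 pairs of tested genes, related or not, the shares were 59.7% and 29.2% and the median size 1.28. Without the 2 pairs that hold Arf2, 20 of 27 pairs (74.1%) shifted by at least 1 and 8 (29.6%) by at least 2, so the share of the larger shifts was near that of all pairs. Against input the median shift was 1.61. Leaving Arf2 out, the 3 p-UPF1 libraries lay outside the range of the 3 IgG libraries in 25 of 27 pairs (92.6%, all pairs of tested genes 78.8%), each with an exact two-sided permutation P of 0.1, the smallest that 3 against 3 libraries allow. No pair can therefore reach 0.05 by this test. Pairs share genes, so they are not independent of one another.

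The largest shift was that of Arf2 to Arf3. Its log2 ratio was −3.28 ± 0.12 in input, −4.49 ± 0.15 in the IgG and 0.59 ± 0.07 in the p-UPF1 libraries (SD, n = 3), a shift of 5.08 from IgG and of 3.86 from input. For Arf2 to Arf1 the ratio was −3.98 ± 0.10 in input, −3.75 ± 0.16 in the IgG and −0.20 ± 0.03 in the p-UPF1 libraries. Because the enrichment of Arf2 was already known, both are descriptions. Of the class I Arf counts, Arf2 made up 3.79% ± 0.282 in input, 2.71% ± 0.263 in the IgG and 35.5% ± 0.690 in the p-UPF1 libraries. The ratio of Rab5b to Rab5c was −1.70 ± 0.04 in input, −1.58 ± 0.08 in the IgG and 1.98 ± 0.06 in the p-UPF1 libraries. That of Rab2b to Rab2a was −2.52 ± 0.04 in input, −2.69 ± 0.16 in the IgG and 0.37 ± 0.04 in the p-UPF1 libraries. Both Rab ratios thus changed sign, from an excess of Rab5c and Rab2a in the controls to an excess of Rab5b and Rab2b in the precipitate.

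The ratio of Arl5c to Arl5b was 0.81 ± 0.05 in input, −0.01 ± 0.21 in the IgG and 2.87 ± 0.13 in the p-UPF1 libraries, and that of Arl5a to Arl5b was 1.58 ± 0.06 in input, 1.17 ± 0.05 in the IgG and 3.36 ± 0.09 in the p-UPF1 libraries. Within the Arl5 group of the trans-Golgi, Arl5b was the one left behind, and Arl5c to Arl5a shifted by 0.70 only. The ratio of Rab8a to Rab10 was −1.45 ± 0.03 in input, −1.36 ± 0.14 in the IgG and 1.33 ± 0.04 in the p-UPF1 libraries. That of Rab1b to Rab1a was −0.70 ± 0.04 in input, −0.77 ± 0.14 in the IgG and 1.36 ± 0.07 in the p-UPF1 libraries. The ratios of Rab8a to Rab10 and of Rab1b to Rab1a also changed sign. The ratio of Rab4a to Rab4b was −4.61 ± 0.25 in input, −4.49 ± 0.40 in the IgG and −2.02 ± 0.18 in the p-UPF1 libraries, and that of Arl4d to Arl4a was −5.02 ± 0.17 in input, −5.56 ± 1.18 in the IgG and −2.996 ± 0.28 in the p-UPF1 libraries, where Arl4d had few counts and the IgG libraries spread widely. The other pairs with a shift of at least 1 included Arf4 to Arf5, at 1.77, and Rab11b to Rab11a, at 1.24. The pairs without a clear shift were Rab3d to Rab3a, at 0.31 (exact P = 0.9), and Rab8b to Rab13, at 0.09 (exact P = 1), each with a member of few counts. The SE of these shifts was 0.45 and 0.48, and whether depth set them was not tested. The ratios of Rab13 to Rab10 and of Rab8a to Rab13, which hold the same scarce Rab13, shifted by 1.64 and 1.06 without overlap of IgG and p-UPF1 libraries.

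**Figure D4:**
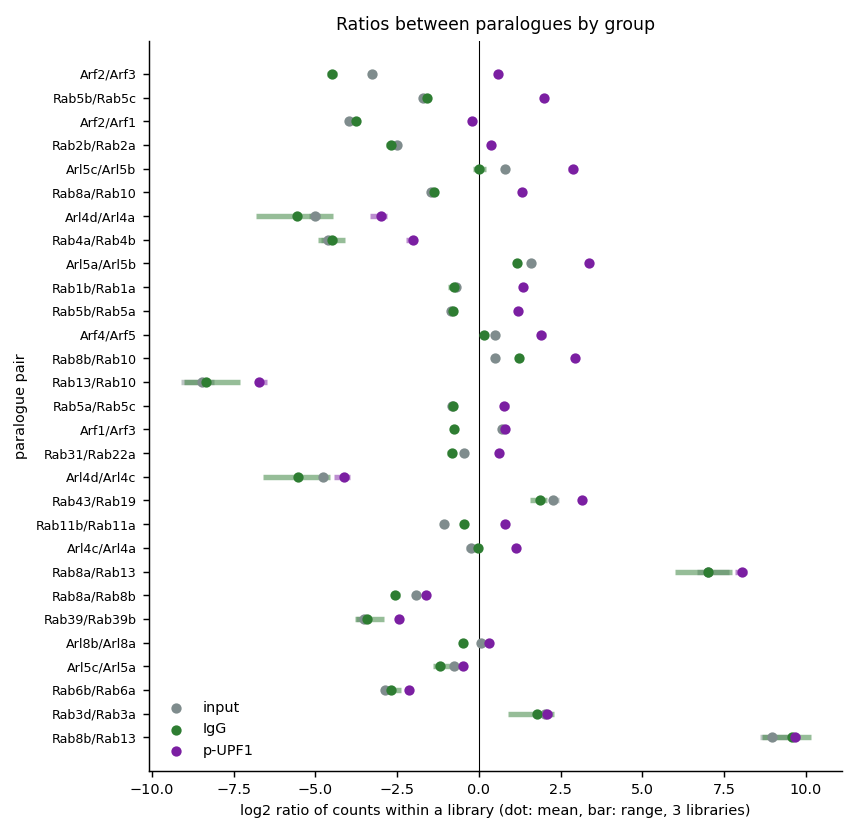
Log2 ratio of counts within a library for 29 pairs of paralogues, in input, IgG and p-UPF1 libraries, with a dot for the mean and a bar for the range of 3 libraries. In the upper rows the p-UPF1 ratio lies to the right of both controls, by 5.08 from IgG for Arf2 to Arf3, while Rab8b to Rab13 at the bottom shifts by 0.09.

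The IgG precipitate itself differed from input by a large step in few members. With a minimum size of 1 on the log2 scale, Rab12 was higher (beside 2.07% of all tested genes) and Rab32 lower (2.16%), counts that ran from 0 to 3 and from 0 to 2 over the alternative settings. At any size 9 members were higher (12.5%, all genes 18.2%) and 34 were lower (47.2%, all genes 34.7%). These numbers moved with the scaling, as did those of all genes. Library size alone gave 15 higher and 22 lower (all genes 26.8% and 24.2%), as did an input library as the TMM reference (all genes 26% and 24.8%). An IgG library as reference gave 15 and 23 (all genes 25.6% and 25.4%). Upper-quartile factors gave 12 and 25 (all genes 23.1% and 28.1%) and DESeq2 size factors 11 and 29 (all genes 20% and 31.7%). Rab12 had p-UPF1 levels of 28.3, 28.7 and 29.7 CPM, against 48.3, 51.8 and 53.7 CPM in the IgG and 24.8, 25.1 and 25.5 CPM in the input libraries. Rab12 stood at 1.03 ± 0.06 (adjusted P = 1.63e-09) for IgG over input, and in the p-UPF1 precipitate it was lower than IgG, at −0.83 ± 0.06 (adjusted P = 8.97e-10), but higher than input, at 0.20 ± 0.06 (adjusted P = 0.00651). Rab24 gave the same pattern, at 0.80 ± 0.06 (adjusted P = 4.81e-08) for IgG over input, −0.35 ± 0.06 (adjusted P = 6.70e-05) over IgG and 0.45 ± 0.06 (adjusted P = 5.63e-06) over input. Rab32 was measured at 4.54, 5.20 and 5.27 CPM in input, 1.84, 2.13 and 3.13 CPM in the IgG and 4.89, 5.06 and 5.48 CPM in the p-UPF1 libraries. Rab32, a Rab of lysosome-related organelles, was higher than IgG, at 1.12 ± 0.19 (adjusted P = 4.55e-05), and did not pass over input, at 0.04 ± 0.17 (adjusted P = 0.847). Its IgG libraries all lay below its input libraries. Between paralogues the IgG ratio differed from the input ratio by a median of 0.36 in size, and by at least 1 in 2 pairs, the largest being Arf1 to Arf3 at −1.45 in the direction of Arf3.

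Features of the mRNAs that the symbol rule did not use were read from the annotated principal transcript. An exon junction more than 50 nucleotides after the stop codon marks a stop as premature in the classical account of NMD. In the transcript read, none of the 72 tested members had one, and 47 of 11859 genes did (0.396%). Only transcripts annotated as protein-coding were eligible, and those annotated as NMD isoforms were left out beforehand. These counts were therefore low by that choice and do not show that the members lack such isoforms. An annotated NMD isoform was listed for 16 members (22.2%, all genes 29.4%), among them 5 of the 24 higher and 2 of the 17 lower members. An ATG upstream of the coding start was present in 34 members (47.2%, all genes 50.3%), in 13 of the 24 higher and 5 of the 17 lower ones. The higher members include Arf2, known beforehand, and the filter-dependent Rab15 and Rab36, each with such an ATG. Features of the higher and lower members were not compared without these genes, so their contrasts, here and below, are descriptions only. The median 3′ untranslated region (UTR) was 1505 nucleotides in members and 1019 in all genes. It was 1769.5 nucleotides in the higher and 1329 in the lower members.

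Across the members, 3′ UTR length went little with the log2 fold change over IgG. Pearson's r was 0.09 and Spearman's rho 0.10 with log10 length over 71 members, beside 0.34 and 0.33 over 11764 genes. For the GC content of the 3′ UTR the values were 0.27 and 0.27 in members and 0.30 and 0.31 in all genes. For that of the coding sequence they were 0.30 and 0.29 in members and 0.16 and 0.17 in all genes. The GC content of the 5′ UTR went the other way in members, at −0.28 and −0.26, beside 0.03 and 0.03 in all genes. These are correlations across genes from the same 9 libraries, and genes are not independent replicates. The higher members, with Arf2, Rab15 and Rab36 among them, had a median GC content of 48.2% in the 3′ UTR and 53.2% in the coding sequence. The lower ones had 40.8% and 49.7%. In the 5′ UTR the order was the reverse, 65.5% in the higher and 71.7% in the lower members. Between paralogues the more enriched member had the longer 3′ UTR in 17 of 29 pairs, the higher 3′ UTR GC content in 17 and the higher coding GC content in 16. In the pair with the largest shift, Arf2 had the shorter 3′ UTR of the 2, 1588 nucleotides beside 3699 in Arf3.

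The regulators and effectors of the family were counted from 7 lists, 163 genes in all, of which 158 were tested. Of these, 44 (27.8%, all genes 22.2%) were higher than IgG by at least 1 on the log2 scale, 10 (6.33%, all genes 21.9%) were lower and 104 neither, with a median log2 fold change of 0.39. The 10 that were p-UPF1-bound (6.33%) were close to the share of all genes, 6.25%. Agap1 and Sytl3, named here after their values were seen, passed the count filter only with the precipitate. Without them 42 of 156 (26.9%, all such genes 21.2%) were higher, 10 (6.41%, 22.3%) lower and 9 bound (5.77%, as of all such genes). By list, 12 of 31 Rab GAPs were higher (38.7%) and 2 lower, and 5 of 13 Arf GEFs were higher (38.5%) and 1 lower. Nearer to the 22.2% of all genes, 7 of 29 Rab GEFs were higher (24.1%) and 1 lower, and 4 of 22 Arf GAPs were higher (18.2%) and 3 lower. Of the effectors of Rab and Arf, 10 of 35 were higher (28.6%) and 0 lower, with 5 of 20 Arl regulators and effectors higher (25%) and 1 lower. Of 8 genes of Rab prenylation and GDP dissociation inhibition, 1 was higher (12.5%) and 2 lower (25%).

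The most enriched of the lists were cytohesins, Arf GEFs that act on Arf1 and Arf6 at the plasma membrane. Cyth1 read 208, 208 and 209 CPM in the input libraries, 230.4, 238 and 248 CPM in the IgG libraries and 2292, 2360.2 and 2449 CPM in the p-UPF1 libraries. Cyth1 stood at 3.31 ± 0.04 (adjusted P = 1.78e-18) over IgG and 3.51 ± 0.04 (adjusted P = 3.87e-19) over input. Cyth4 and Cyth3 were bound as well, at 3.29 ± 0.05 (adjusted P = 4.47e-18) and 2.20 ± 0.07 (adjusted P = 1.71e-14) over IgG, whereas Cyth2 stood at 57.7, 60.2 and 62.3 CPM in input, at 64.5, 67.3 and 67.5 CPM in the IgG and at 24.3, 24.7 and 27.3 CPM in the p-UPF1 libraries. Cyth2, their paralogue, was lower, at −1.38 ± 0.06 (adjusted P = 9.41e-13) over IgG, so a divided paralogue group was seen on the GEF side too. Such divisions were common among genes at large, since 29.2% of all pairs of tested genes shifted by at least 2. Unc119b, which carries myristoylated cargo released by Arl3, stood at 2.84 ± 0.06 (adjusted P = 2.96e-16), and Tbc1d1, a Rab GAP, at 2.01 ± 0.05 (adjusted P = 7.69e-16). At the other end were Rabac1, which binds prenylated Rabs, at −2.61 ± 0.08 (adjusted P = 1.32e-14), Rp2, the GAP of Arl3, at −1.53 ± 0.05 (adjusted P = 1.80e-14), and the Arf GAPs Agfg1 and Smap1, at −1.25 ± 0.05 (adjusted P = 3.99e-13) and −1.19 ± 0.07 (adjusted P = 5.40e-11). Both Arl3 and its GAP were thus lower in the precipitate, while Unc119b was higher.

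Of the other tested members, Rab39, at 2.55 CPM in the IgG and 5.50 CPM in the p-UPF1 libraries on average, was higher than IgG by 1.11 ± 0.19 (adjusted P = 6.06e-05), while its paralogue Rab39b did not pass, at 0.16 ± 0.09 (adjusted P = 0.0929). Rab22a of early endosomes, Rab23 and Rab29 were higher by under 1 on the log2 scale, at 0.82, 0.70 and 0.43. Rab6a of retrograde transport to the Golgi, Arl8b of lysosome positioning, Rab20 and Rab28 were lower by under 1, at −0.80, −0.46, −0.44 and −0.23. Rab6b and Rab34 did not pass, at −0.26 (adjusted P = 0.0515) and −0.20 (adjusted P = 0.210) over IgG by edgeR's quasi-likelihood test.

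The members at low counts were Rab15, Rab36, Rab26, Arl9, Arl11 and Rab13, tested at means under 1 CPM. Rab15, Rab26, Rab36 and Arl9 reached the count minimum in all 3 p-UPF1 libraries but in fewer than 3 of the other 6, so their passing the filter depended on the precipitate and their direction is not read as a result. Rab15 and Rab36 are among the 24 higher members. Arl11, Rab13, Rab3a and Rab26 did not pass over either control. The 13 untested genes were Arl13a, Arl14, Rab25, Rab27b, Rab33a, Rab38, Rab3b, Rab3c, Rab40b, Rab42, Rab44, Rab7b and Rab9b, with a mean of at most 0.271 CPM. In these libraries Rab27a was thus measured and its paralogue Rab27b was not above the limit for a test. Exons of 17 tested members overlap a gene on the opposite strand, so their counts and ratios may include reads of that gene. Besides Arl16, Rab10, Rab2b, Rab5a and Rab5b they are Arl1, Arl2, Arl9, Rab1a, Rab4a, Rab6a, Rab7, Rab11b, Rab15, Rab20, Rab22a and Rab36. Exons of 2, Arl10 and Arl2, overlap a small RNA gene on the same strand.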

How the data were processed

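RIP-seq was performed on polyA RNA of activated splenic B cells of mice, with 3 input, 3 IgG and 3 p-UPF1 libraries. The authors deposited raw counts of reads for each gene and library, without scaling. Per the submitters' processing notes, cutadapt, HISAT2, featureCounts and mm10 were used, with no versions given. The strand setting of the counting for these libraries is not given in the sources used here. The kit was directional, and the counts carry no molecular identifiers, so intervals and errors of counts cover reads and not molecules.

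Gene numbers were named through the RefSeq annotation of GRCm38 (25275 of 27179 matched), and transcript features came from GENCODE M21, using the principal coding transcript with the longest 3′ UTR. Genes were kept with filterByExpr with minimums of 10 counts and of 15 in total, and were scaled by TMM. One negative binomial model took all 9 libraries in 3 groups (residual degrees of freedom 6), and edgeR (4.0.16 in R 4.3.3) gave two-sided quasi-likelihood tests adjusted by Benjamini-Hochberg over 13129 genes, a threshold of 0.05 and a prior count of 0.125. The criterion of the methods for p-UPF1-bound RNAs was a log2 fold change from 1 upwards against IgG and from 2 upwards against input. Paralogue ratios used a prior count of 0.5 and exact permutation tests over libraries, and the same ratios over all pairs of tested genes served as background. CPM values are TMM-normalised, with SD over 3 libraries, and fold changes carry their SE. Levels per kilobase were divided by the length of the union of annotated exons, which need not be the length expressed.

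Always given with values were Arf1 to Arf6, bound members, the 6 highest and 6 lowest members over IgG at a mean of at least 10 CPM, pairs that shifted by at least 2, and the 5 highest and 5 lowest regulators or effectors at the same minimum. Other members are named since all were accounted for. The members and the lists were chosen with earlier results of these data known. One marker gene is not reported here. The scripts were tested on simulated data. Alternatives covered scaling, the low-count filter, DESeq2 (1.42.0), limma-voom (limma 3.58.1), glmTreat, fits of 2 groups, the prior count, the P threshold, leaving out each library and, chosen after seeing the data, the column letter as a block.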

Additional observations from a re-analysis of the deposited data

How the results depend on the processing

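Over 23 alternatives, the count of members higher than IgG ran from 19 to 26 (24 as reported), that of members lower than IgG from 14 to 19 (17), that of members lower than input from 4 to 5 (4) and that of p-UPF1-bound members from 5 to 10 (7). Testing the minimum fold with glmTreat lost Arl4d and Rab17. DESeq2, DESeq2 size factors in edgeR and an IgG library as the TMM reference each gave 9 bound members, adding Arl4c and Rab37. No low-count filter and leaving out p-UPF1 library C each gave 10, adding these and Rab36. Members higher than input ran from 5 to 12 over the 23 alternatives (7 as reported), with 12 in the absence of a low-count filter. They numbered 7 to 11 when each library was left out, with 11 in the absence of input library A. Under TMM and the 5 other scalings, 19% to 22.9% of all genes were higher than IgG by at least 1 and 21.2% to 26% lower. For the other alternatives no share of all genes is given, so the counts of members are not read as changes of the members alone. Pairs shifted by at least 1 numbered 20 to 23 over 12 alternatives (22), and regulators and effectors higher than IgG 39 to 46 (44) and lower 8 to 14 (10).

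Counts for IgG over input were small and unsteady. The 1 member higher became 3 under DESeq2 size factors, upper-quartile factors, library size alone and an input or IgG library as the TMM reference, 2 under DESeq2, limma-voom, no low-count filter and fits of 2 groups, and 0 under glmTreat. Leaving out libraries gave 0 (IgG C) to 2 (IgG B or input A). The 1 member lower became 0 under glmTreat, library size alone, no low-count filter, fits of 2 groups and an input or IgG library as the TMM reference, and 0 (IgG B) to 2 (IgG C) when libraries were left out.

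For the 30 named members under 21 alternatives, direction and side of the adjusted P threshold were kept by 630 of 630 values over input, 613 of 630 over IgG and 571 of 629 for IgG over input, where 38 lost the call, 9 gained it and 11 turned sign. The minimum fold was crossed by 8 values over input (6 of Arl4c, up to 2.10, and 2 of Arf5), by 14 over IgG (9 of Rab1b, 3 of Rab4b and 2 of Arl5c) and by 9 for IgG over input (8 of Arf3 and 1 of Arl4d). Arf1 over IgG was 0.0002061 without the filter and from −0.0968 to 0.0188 when libraries were left out, the highest without IgG library B. Arf4 over IgG was −0.0517 with library size alone and −0.0264 with upper-quartile factors. For IgG over input, Arl4c was 0.0008342 with an IgG and 0.007536 with an input library as reference, 0.0159 with library size alone and 0.009171 with 2 groups, and Rab2a was 0.00569, 0.0141 and 0.005787 with an input reference, library size alone and 2 groups. When libraries were left out, Rab31 ran from −0.0462 to 0.0278 and Rab40c from −0.0573 to 0.103. The cause was not tested.

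The columns carry letters shared by the groups, not the labels' replicate numbers, and no source says that a letter marks a lysate. Deviations from the group means correlated at −0.0051 to 0.0542 between libraries of 1 letter and at −0.056 to 0.0222 otherwise, and not every library correlated best with its own letter. With the letter as a replicate block, chosen after seeing the data, there were still 7 bound members, 24 higher and 17 lower than IgG, and among named members the call changed for Arf4 over IgG alone (0.11, adjusted P = 0.0268). The 6 members under 1 CPM and the pairs that hold them rest on few counts, which limits their precision.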
